A study of Mus musculus with 6 samples.

Results

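The genes described here code for the glycoproteins and proteoglycans that fill connective tissue, together with a few genes that mark the fibroblasts that secrete them. The list holds 43 genes and was fixed by name, with earlier results of these data known. A gene counted as measured where at least 1 probe set on the array was annotated to its symbol alone, and 41 genes met this rule, of 18193 genes with a probe set of their own. Fbn1 and Loxl2 had no such probe set and are not analysed here. Where a gene had several probe sets, the one with the highest mean over the 6 arrays stood for it.

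Expression was measured on 6 arrays from untreated adult C57/BL6 mice. Carotid body, the small oxygen sensor beside the carotid artery, gave 3 samples, and each pooled 18 organs. Adrenal medulla, the catecholamine-secreting core of the adrenal gland, also gave 3 samples, and each pooled 10 organs. Every pool came from 10 mice, and cohorts 1, 2 and 3 each supplied a carotid body and an adrenal medulla pool per the series' design text. The tissues were pooled whole, so a level reflects all their cell types, and fewer cells of a type cannot be told apart from less RNA per cell.

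Fibroblasts build the extracellular matrix from collagen fibrils, elastic fibres and the hydrated proteoglycans between them. Small leucine-rich proteoglycans bind collagen and set the width and spacing of fibrils. Fibrillin microfibrils carry elastin, and lysyl oxidases crosslink both elastin and collagen. Fibronectin, tenascins, thrombospondins and periostin link cells to this scaffold. In the carotid body, glomus cell clusters lie in a vascular stroma next to a large artery, whereas the adrenal medulla is enclosed by the adrenal cortex.

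Some arrays stood apart in ways that touch the comparison. Steroid-synthesis RNA of the adrenal cortex was abundant in all adrenal medulla pools (Star 13.52 to 13.95 on the log2 scale) and in the carotid body pool of cohort 1 (12.06), against 3.85 and 3.81 in the other carotid body pools. The embryonic globin Hbb-y, chosen after its values were seen, was 13.86 in carotid body of cohort 3, and at most 9.19 elsewhere. Hmga2 and Mki67, picked in the same way, were 9.52 and 8.51 on that array, against 4.98 to 5.23 and 5.22 to 6.36 elsewhere. Xist, the transcript of the inactive X chromosome, was 8.84 to 10.96 in carotid body against 4.45 to 5.6 in adrenal medulla. For Gapdh, the 3′ control minus the 5′ control, a measure that is larger for shorter RNA, was 0.59 to 1.45 in the former and 0.13 to 0.61 in the latter. Xist split by tissue in every cohort, so what set it apart cannot be told apart from tissue. The part of these features in the results below was not tested. The catecholamine enzyme Th was high in both tissues, at 11.42 to 11.89 in carotid body against 12.97 to 13.83 in adrenal medulla, and Dbh was 7.86 to 10.23 and 12.58 to 13.00.

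Most of the matrix and fibroblast genes were higher in carotid body. A gene was called where the adjusted p of limma's test was under 0.05 and the difference at least 2-fold. By this rule 31 of the 41 measured genes were higher in carotid body, where 5.91% of all genes were called in that direction. The genes were chosen with earlier results of these data known, so shares of all genes are background here and no test of the list. None of the 41 was called higher in adrenal medulla, against 6.08% of all genes; with an adjusted p under 0.05 and no minimum fold, 1 was, against 16.5%. The median difference of the 41 genes was 1.65 (log2, carotid body minus adrenal medulla), beside -0.04 over all genes. At least 4-fold higher were 17 of them and 366 of all 18193 genes, and at least 8-fold higher were 9 of them and 144 of all genes. All carotid body arrays lay above all adrenal medulla arrays for 35 of the 41 genes, against 17.8% of all genes, and below them for 1, against 26.1%. In 5 genes the tissues overlapped. Within cohorts 1, 2 and 3 the median difference was 1.52, 1.72 and 1.68. Higher in carotid body in every cohort were 37 of the 41 genes, a count for which no share over all genes was computed. Without the carotid body array of cohort 1, which held the cortex RNA, 32 genes were called higher and the median difference was 1.80.

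**Figure D1:**
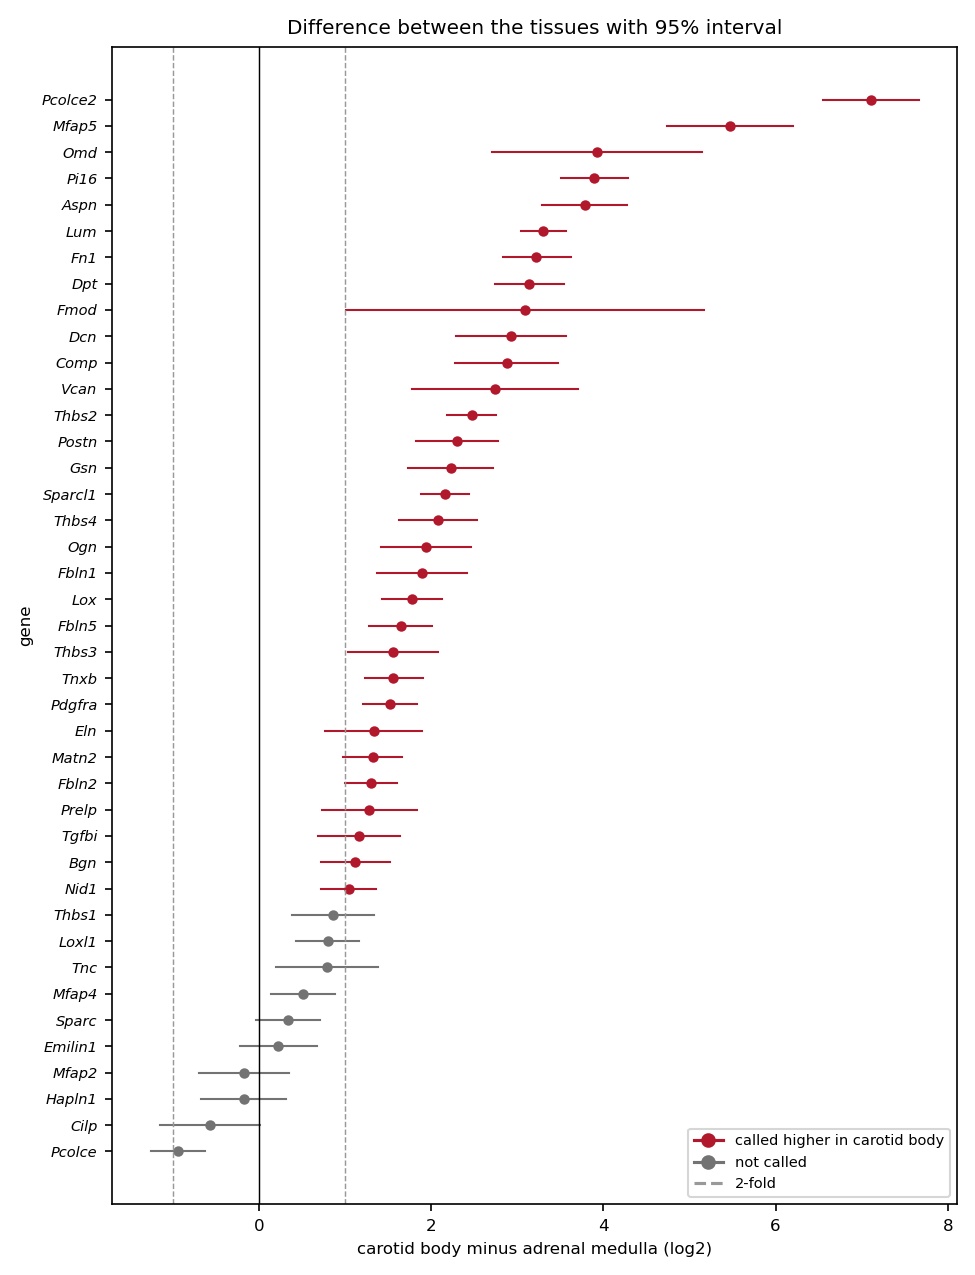
The difference between carotid body and adrenal medulla (log2, x axis) for each of the 41 measured genes (y axis), with its 95% interval from limma; dashed lines mark 2-fold. Pcolce2 at 7.11 and Mfap5 at 5.47 lie farthest to the right, and Pcolce at -0.94 lies at the other end.

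All 8 small leucine-rich proteoglycan genes were higher in carotid body, with differences from 1.12 to 3.93. Decorin, Dcn, which decorates collagen fibrils and binds TGF-beta, was 14.18, 14.14 and 13.79 in carotid body of cohorts 1, 2 and 3 and 11.64, 11.17 and 10.50 in adrenal medulla. Its groups were well separated, by 2.93 ± 0.28 (SE) or 7.63-fold (adjusted p = 0.0004). Asporin, Aspn, a relative of decorin with an aspartate stretch, was 9.48, 8.92 and 9.02 against 5.0, 5.44 and 5.64. That difference was 3.78 ± 0.21 (adjusted p = 4.56e-05). Biglycan, Bgn, the third class I member and a gene of the X chromosome, was abundant everywhere and differed least of this class. Its values were 12.53, 12.92 and 12.99 in carotid body against 11.57, 11.96 and 11.56 in adrenal medulla, a difference of 1.12 ± 0.17 (adjusted p = 0.00347).

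Lumican, Lum, a keratan sulfate proteoglycan of fibril assembly, had the smallest spread of these genes. It was 12.31, 12.38 and 12.29 in carotid body against 8.99, 9.15 and 8.94 in adrenal medulla, a difference of 3.30 ± 0.11 (adjusted p = 7.7e-06). Osteomodulin, Omd, a proteoglycan first known from bone, was 10.27, 9.80 and 9.05 against 7.0, 5.17 and 5.16, and differed by 3.93 ± 0.53 (adjusted p = 0.0019). The adrenal medulla of cohort 1 was the high one of its group. The same array stood out more for fibromodulin, Fmod, which guides collagen crosslinking in tendon. Fmod was 9.90, 9.5 and 9.43 in carotid body against 8.90, 4.94 and 5.71 in adrenal medulla. Its difference of 3.09 ± 0.89 (adjusted p = 0.042) rested on few arrays: without the carotid body array of cohort 1, 2 or 3 the adjusted p was 0.0976, 0.109 or 0.062, and without the adrenal medulla array of cohort 2 or 3 it was 0.13 or 0.138. Without the adrenal medulla array of cohort 1 the difference was 4.28 (adjusted p = 0.000269), and the adjusted p was 0.118 where variances were moderated robustly along an intensity trend. Of the 6 Fmod probe sets, 2 were called higher. In 1 that was not, the adrenal medulla array of cohort 1, at 6.95, lay above all carotid body arrays, at 6.75 to 6.86. Osteoglycin, Ogn, and Prelp, which anchors basement membranes to connective tissue, differed by 1.94 ± 0.22 (adjusted p = 0.000962) and 1.28 ± 0.24 (adjusted p = 0.00726).

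Small leucine-rich proteoglycan genes lie beside each other in the genome, and their neighbours, some of which were picked after their values were seen, gave mixed values. On chromosome 13, Ecm2, Aspn, Omd and Ogn follow each other in the RefSeq order of protein-coding genes, and each was called higher in carotid body. Ecm2, a related leucine-rich matrix gene, differed by 4.07 ± 0.16 (adjusted p = 1.52e-05). Its other probe set differed by 0.07, and its adrenal medulla mean was low, at 4.98. On chromosome 10, Dcn and Lum are followed by Kera and Epyc, proteoglycans of cornea and cartilage. Kera was 3.01 to 3.35 in carotid body against 3.16 to 3.44 in adrenal medulla (adjusted p = 0.714), while Epyc differed by 1.16 (adjusted p = 0.0116). On chromosome 1, Prelp and Fmod follow Optc, whose difference was -1.01 (adjusted p = 0.0341). The 250 bases before the annotated starts of Aspn, Omd and Ogn, the neighbouring members that were higher together, are shown from RefSeq on GRCm38.p6, 5′ to 3′ on the plus strand, at chr13:49544193-49544442, chr13:49582212-49582461 and chr13:49607765-49608014. Capitals mark TATAAA on either strand.
Aspn: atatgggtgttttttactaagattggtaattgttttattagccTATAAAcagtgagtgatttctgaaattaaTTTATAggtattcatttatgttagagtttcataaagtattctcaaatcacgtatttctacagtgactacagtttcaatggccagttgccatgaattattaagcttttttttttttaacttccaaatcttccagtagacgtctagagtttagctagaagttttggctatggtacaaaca
Omd: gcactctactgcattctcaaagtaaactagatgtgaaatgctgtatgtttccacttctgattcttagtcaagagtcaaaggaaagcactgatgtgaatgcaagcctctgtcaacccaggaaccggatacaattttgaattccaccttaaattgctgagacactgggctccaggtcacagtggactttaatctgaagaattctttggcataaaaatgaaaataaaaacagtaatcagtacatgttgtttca
Ogn: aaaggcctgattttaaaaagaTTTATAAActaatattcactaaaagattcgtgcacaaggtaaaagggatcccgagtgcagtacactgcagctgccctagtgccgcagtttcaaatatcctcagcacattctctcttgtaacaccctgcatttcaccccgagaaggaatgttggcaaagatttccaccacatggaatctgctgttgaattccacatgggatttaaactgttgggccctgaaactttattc

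These 3 windows were poor in G and C, at 30.0%, 38.4% and 42.0%, beside a median of 52.4% over all 32851 promoter windows of the same length. Windows were searched on both strands for TATAAA, then for TGANTCA, the AP-1 motif, and for the CArG box of serum response factor. Aspn and Ogn each held TATAAA on both strands, overlapping in Ogn, at bases -207 to -202 and -178 to -173 in Aspn and -229 to -222 in Ogn, counted from the start, and Omd held none of the 3 motifs in these letters. Of the 29 measured genes with a promoter window, 5 held TATAAA (Aspn, Ogn, Postn, Thbs2 and Tnc), 1 held TGANTCA (Tnxb) and 0 held a CArG box. Some genes had several windows. Counted by window, 6, 1 and 0 of 36 held these motifs, beside 12.4%, 6.75% and 1.47% of all windows.

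The versican gene Vcan, a large chondroitin sulfate proteoglycan of vessel walls and loose matrix, was higher in carotid body, and its partner was not called. Vcan was 7.58, 7.67 and 8.82 in carotid body against 4.54, 5.58 and 5.73 in adrenal medulla. The carotid body of cohort 3 was the highest array, the adrenal medulla of cohort 1 the lowest, and the difference was 2.74 ± 0.41 (adjusted p = 0.00308). It was 0.71, under 2-fold, in the mean of the 8 Vcan probe sets. Hapln1, the link protein that ties such proteoglycans to hyaluronan and the neighbour of Vcan on chromosome 13, was 5.38, 6.03 and 6.23 against 6.02, 6.07 and 6.11. Its groups overlapped; the difference was -0.18, with a 95% interval from -0.68 to 0.31 (adjusted p = 0.604), and it was 0.07 without the carotid body array of cohort 1.

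Elastic fibre genes were split. Mfap5, a small microfibril glycoprotein that binds fibrillin, was 10.72, 10.84 and 10.67 in carotid body against 6.07, 4.77 and 4.97 in adrenal medulla. The carotid body arrays lay close together and far above, by 5.47 ± 0.31 (adjusted p = 5.01e-05), with 2 of the 3 adrenal medulla arrays under 5, where values were not shown to be above background. Elastin, Eln, the rubber-like core of the fibre, was 8.05, 8.70 and 8.37 against 6.60, 7.13 and 7.40, a difference of 1.33 ± 0.24 (adjusted p = 0.00665). The other Eln probe set differed by 0.03 (adjusted p = 0.925), and the mean of both by 0.68, under 2-fold. Mfap2, the close relative of Mfap5, was not called: it was 8.47, 8.77 and 8.81 in carotid body against 8.44, 9.33 and 8.82 in adrenal medulla. The tissues overlapped for Mfap2, with a difference of -0.18 and a 95% interval from -0.70 to 0.35 (adjusted p = 0.642), which turned to 0.06 without the adrenal medulla array of cohort 2. Emilin1, an elastin-associated glycoprotein, differed by 0.22 (95% interval -0.22 to 0.67, adjusted p = 0.47) and Mfap4, an integrin ligand of elastic fibres, by 0.51 (0.14 to 0.88, adjusted p = 0.0555). All 3 fibulin genes, whose products bridge elastin, microfibrils and basement membrane, were called. Fbln1, Fbln2 and Fbln5 differed by 1.89, 1.30 and 1.65, with adjusted p of 0.00115, 0.000526 and 0.000443. Averaged over their probe sets they differed by 1.19, 0.75 and 1.01, so that Fbln2 was under 2-fold.

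**Figure D2:**
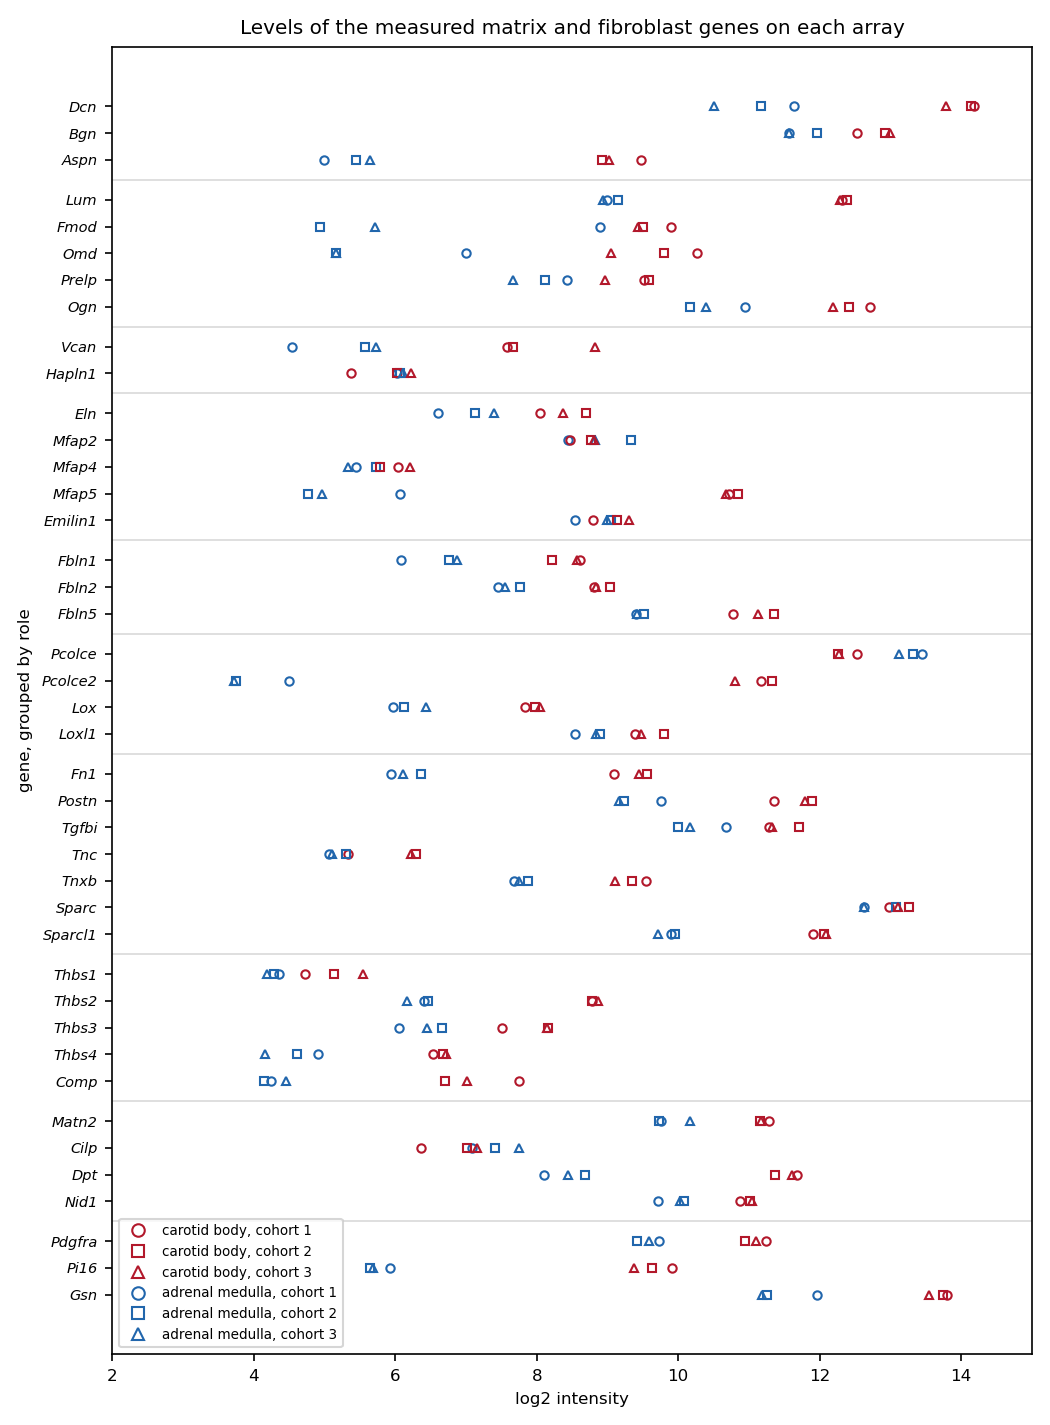
Level of each measured gene (log2 intensity, x axis) on each of the 6 arrays, carotid body in red and adrenal medulla in blue, with a marker shape per cohort and genes grouped by role (y axis). The tissues are apart for most genes, overlap for Hapln1, Mfap2, Emilin1, Sparc and Cilp, and are in the opposite order for Pcolce.

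The genes of collagen processing held both extremes of the list. Pcolce2 and Pcolce code for 2 enhancers of the protease that trims the C-propeptide of fibrillar procollagen. Pcolce2 was 11.17, 11.32 and 10.80 in carotid body against 4.5, 3.75 and 3.72 in adrenal medulla, a measured difference of 7.11 ± 0.24 (adjusted p = 7.7e-06). Its adrenal medulla values lie near the lowest on the arrays and were not shown to be above background, so this difference is best read as a lower bound. Pcolce went the other way, at 12.52, 12.26 and 12.27 in carotid body against 13.44, 13.32 and 13.12 in adrenal medulla. All its carotid body arrays were below all its adrenal medulla arrays, by -0.94 ± 0.14 (adjusted p = 0.00258), which is short of 2-fold. It passed 2-fold, at -1.03, without the carotid body array of cohort 1 or the adrenal medulla array of cohort 3, and at -1.06 with each array centred on its median. Lysyl oxidase, Lox, was 7.84, 7.97 and 8.05 against 5.97, 6.12 and 6.44, higher by 1.78 ± 0.15 (adjusted p = 0.000266), or 0.90 and under 2-fold in the mean of its probe sets, and Loxl1, needed for elastic fibre renewal, differed by 0.80 ± 0.16 (adjusted p = 0.00929), under 2-fold.

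The windows before the starts of Pcolce2 and Pcolce are shown because this pair differed most. They are the 250 bases of RefSeq GRCm38.p6 at chr9:95637378-95637627, plus strand, and chr5:137611405-137611654, minus strand, each 5′ to 3′. Neither held any of the motifs searched, so nothing is in capitals.
Pcolce2: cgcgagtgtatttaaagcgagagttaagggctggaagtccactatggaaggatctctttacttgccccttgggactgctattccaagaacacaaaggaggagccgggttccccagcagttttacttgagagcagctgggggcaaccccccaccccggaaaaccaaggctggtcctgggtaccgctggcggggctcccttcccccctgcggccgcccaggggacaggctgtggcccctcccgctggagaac
Pcolce: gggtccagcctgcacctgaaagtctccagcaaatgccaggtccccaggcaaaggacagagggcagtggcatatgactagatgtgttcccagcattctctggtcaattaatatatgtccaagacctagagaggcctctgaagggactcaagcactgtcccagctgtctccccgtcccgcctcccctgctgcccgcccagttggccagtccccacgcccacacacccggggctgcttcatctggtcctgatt
The Pcolce2 window was 61.2% G and C and held 10 CG dinucleotides, and the Pcolce window was 58.8% with 5, beside a median of 6 CG dinucleotides over all windows.

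Adhesive glycoproteins were mostly higher in carotid body. Fibronectin, Fn1, the chief cell-adhesive protein of the matrix, was 9.09, 9.56 and 9.44 in carotid body against 5.94, 6.37 and 6.11 in adrenal medulla, higher by 3.22 ± 0.17 (adjusted p = 3.92e-05), or 2.09 in the mean of its probe sets. Periostin, Postn, a product of activated fibroblasts, was 11.36, 11.89 and 11.79 against 9.75, 9.23 and 9.16, and differed by 2.30 ± 0.21 (adjusted p = 0.000327). Tgfbi, a relative of periostin that binds integrins, differed by 1.16 ± 0.20 (adjusted p = 0.00584). Of the tenascins, Tnxb, which spaces collagen fibrils in skin and vessels, differed by 1.56 ± 0.14 (adjusted p = 0.000363). Tnc, a tenascin of developing and injured tissue, was 5.33, 6.30 and 6.22 in carotid body against 5.07, 5.31 and 5.11 in adrenal medulla. The Tnc value of carotid body in cohort 1 was near those of adrenal medulla, and the difference of 0.79 ± 0.25 was not called (adjusted p = 0.0611); without that array it was 1.10 (adjusted p = 0.0021), and with the cohort as a block the adjusted p was 0.031.

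Sparc and Sparcl1 code for related collagen-binding proteins, of which Sparcl1 was called. Sparcl1, also an endothelial and glial product, was 11.91, 12.06 and 12.09 in carotid body against 9.90, 9.96 and 9.72 in adrenal medulla. It was higher by 2.16 ± 0.12 (adjusted p = 4.54e-05). Sparc was 12.98, 13.26 and 13.11 against 12.62, 13.08 and 12.63, so that the groups overlapped. Its difference was 0.34, with a 95% interval from -0.03 to 0.71 (adjusted p = 0.175).

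Of the thrombospondins, calcium-binding proteins of cell-matrix contact, 4 of 5 were called. Thbs2, an inhibitor of vessel growth made by fibroblasts, was 8.78, 8.78 and 8.86 in carotid body against 6.41, 6.46 and 6.16 in adrenal medulla, higher by 2.47 ± 0.12 (adjusted p = 3.16e-05). Comp, a thrombospondin of cartilage and tendon, was 7.75, 6.70 and 7.01 against 4.25, 4.14 and 4.45, and differed by 2.88 ± 0.26 (adjusted p = 0.000322). The pentameric forms Thbs3 and Thbs4 differed by 1.56 and 2.08 (adjusted p = 0.00266 and 0.000378). Thbs1, an activator of latent TGF-beta, was 4.72, 5.14 and 5.55 in carotid body against 4.36, 4.29 and 4.19 in adrenal medulla. The groups did not overlap, but at 0.86 ± 0.20 (adjusted p = 0.0205) the difference was under 2-fold; without the carotid body array of cohort 1 it was 1.06 (adjusted p = 0.00477).

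Among the remaining matrix glycoproteins, dermatopontin, Dpt, which binds decorin and collagen, was 11.68, 11.37 and 11.61 in carotid body against 8.10, 8.68 and 8.44 in adrenal medulla, higher by 3.14 ± 0.17 (adjusted p = 4.3e-05). Matn2, a matrilin of loose connective tissue and nerve sheaths, differed by 1.32 ± 0.15 (adjusted p = 0.000859). Nidogen, Nid1, which joins laminin to collagen IV, was 10.88, 11.02 and 11.04 against 9.71, 10.08 and 10.03. At 1.04 ± 0.14 (adjusted p = 0.00177) Nid1 was the called gene nearest to the 2-fold limit, and it was 0.92 without the adrenal medulla array of cohort 1 and with arrays centred on their medians. Cilp, of cartilage and fibrotic tissue, was 6.36, 7.01 and 7.15 in carotid body against 7.08, 7.41 and 7.75 in adrenal medulla; the groups overlapped, with a difference of -0.57 (95% interval -1.15 to 0.01, adjusted p = 0.145). Within cohorts 1, 2 and 3 the Cilp difference was -0.73, -0.39 and -0.60, and with the cohort as a block its adjusted p was 0.0224, still under 2-fold.

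All 3 fibroblast genes whose products are not structural matrix were higher in carotid body. Pi16, a marker of adventitial fibroblasts, was 9.91, 9.63 and 9.37 in carotid body against 5.92, 5.64 and 5.68 in adrenal medulla. It was higher by 3.89 ± 0.17 or 14.8-fold (adjusted p = 1.73e-05), and by 2.20 in the mean of its probe sets. Pdgfra, the receptor that marks fibroblasts broadly, was 11.24, 10.95 and 11.10 against 9.73, 9.42 and 9.58, a difference of 1.52 ± 0.14 (adjusted p = 0.000314). Within cohorts 1, 2 and 3 the Pdgfra difference was 1.51, 1.53 and 1.53. Gelsolin, Gsn, an actin-severing protein that is abundant in fibroblasts and smooth muscle, differed by 2.23 ± 0.21 (adjusted p = 0.000432).

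Related genes differed by unequal amounts, which was measured as a log2 ratio within each array. The ratio itself depends on the probe sets, and a scale that all probe sets of an array share cancels in it. The Pcolce2 to Pcolce ratio was -1.35, -0.94 and -1.47 in carotid body against -8.94, -9.56 and -9.41 in adrenal medulla, a change of 8.05 that shares the limit on low Pcolce2 values given above. The change was 5.65 for Mfap5 to Mfap2, 2.92 for Vcan to Hapln1, 1.82 for Sparcl1 to Sparc, 1.61 for Thbs2 to Thbs1 and 0.78 for Tnxb to Tnc. Adrenal medulla values under 5, not shown to be above background, also entered the ratios with Mfap5, Vcan and Thbs1. The Vcan difference was 0.71 in the mean of its probe sets. In each of the 6 pairs, which were chosen with these values known, every carotid body ratio was above every adrenal medulla ratio. The exact two-sided permutation test gave p = 0.1 for each, also after Benjamini-Hochberg adjustment, which is the smallest that 3 arrays against 3 allow.

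Of the adrenal medulla pools, that of cohort 1 stood apart in several of these genes. It lay at least 0.5 (log2) above both other adrenal medulla arrays for 8 of the 41 genes, against 2.13% of all genes, and at least as far below both for 3, against 3.74%. Those above were Fmod, Omd, Mfap5, Pcolce2, Gsn, Ogn, Postn and Tgfbi, with gaps from 0.50 to 3.19. Those below were Vcan, Fbln1 and Eln, with gaps of 1.04, 0.68 and 0.53. For Fmod, each of its 6 probe sets was highest in this array among the adrenal medulla arrays. Among the carotid body arrays, that of cohort 1 lay as far below both others for Tnc, Cilp, Hapln1 and Thbs3 and above them for Comp. Over all genes the shares for that array were 4.4% below and 2.93% above. The carotid body array of cohort 3 lay as far below both others for Omd and Prelp and above them for Vcan. Its shares over all genes were 1.57% below and 4.67% above. Over the 41 genes the median SD of a tissue's arrays was 0.23 in carotid body against 0.26 in adrenal medulla, beside 0.19 and 0.14 over all genes.

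**Figure D3:**
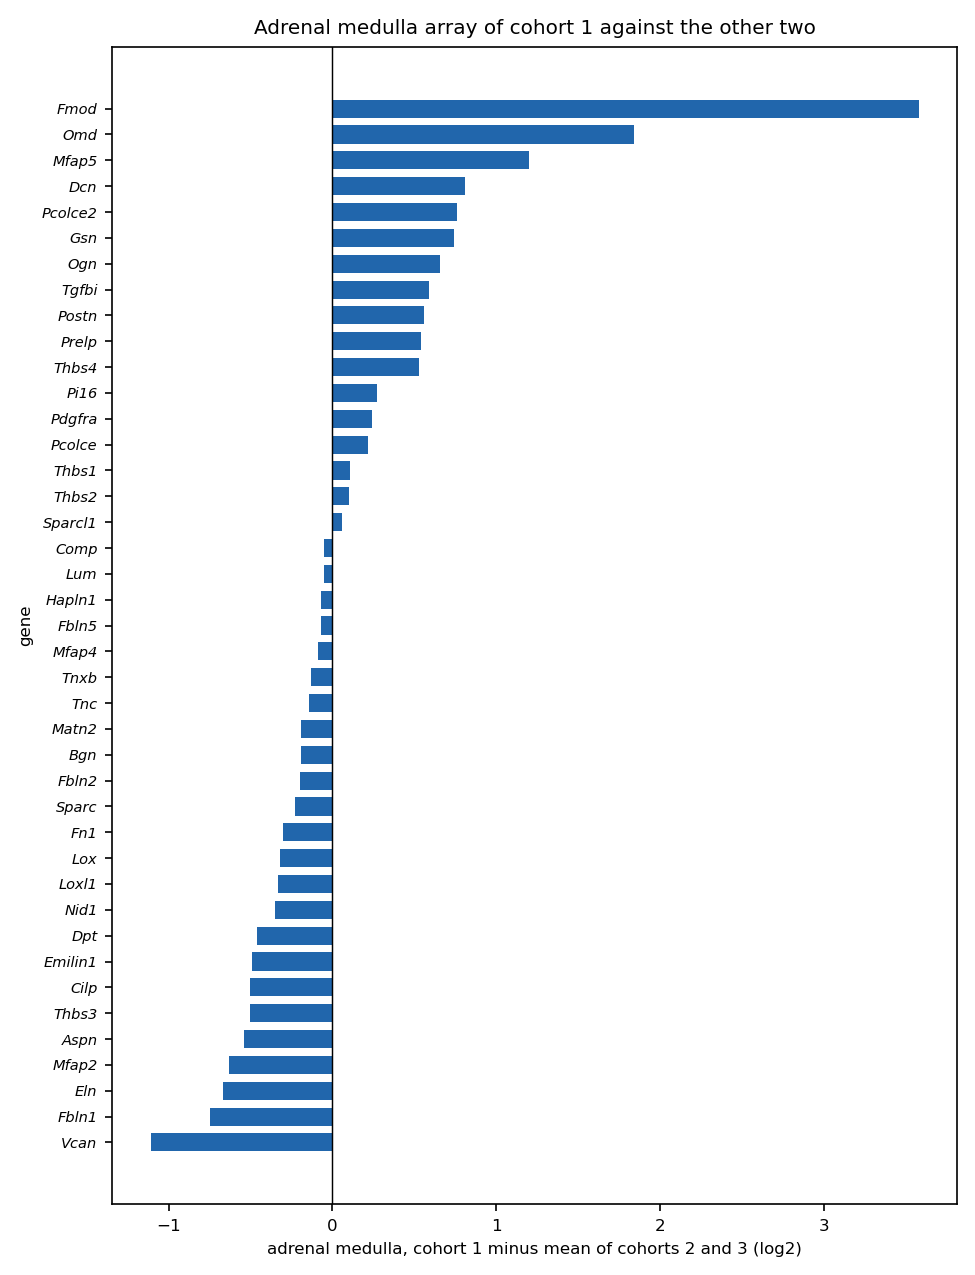
For each measured gene (y axis), the level in the adrenal medulla pool of cohort 1 minus the mean of cohorts 2 and 3 (log2, x axis); each bar is 1 gene. Fmod, Omd and Mfap5 are the longest bars to the right, and Vcan, Fbln1 and Eln the longest to the left.

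The other probe sets of the same genes gave a second reading. Several probe sets were present for 29 of the 41 genes, which adds 54 to the brightest ones. Of these 54, 23 were called higher in carotid body and 1, of Pcolce, was called lower, beside 5.95% and 4.58% of all probe sets, and 0 genes had probe sets called in opposite directions. Dim probe sets differed little: of the 20 with a mean level under 5, 3 were called, with a median difference of 0.22, and of the 34 others 20 were called higher, with a median of 1.19. Of the 8 probe sets of Vcan, 6 were this dim. When a gene's probe sets were averaged, 25 genes were called higher in carotid body and 1, Pcolce at -1.03, was called lower. Fmod at 1.81 (adjusted p = 0.0528) then missed the test, and Vcan, Eln, Fbln2, Lox and Nid1, the last at 0.92, missed 2-fold.

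**Figure D4:**
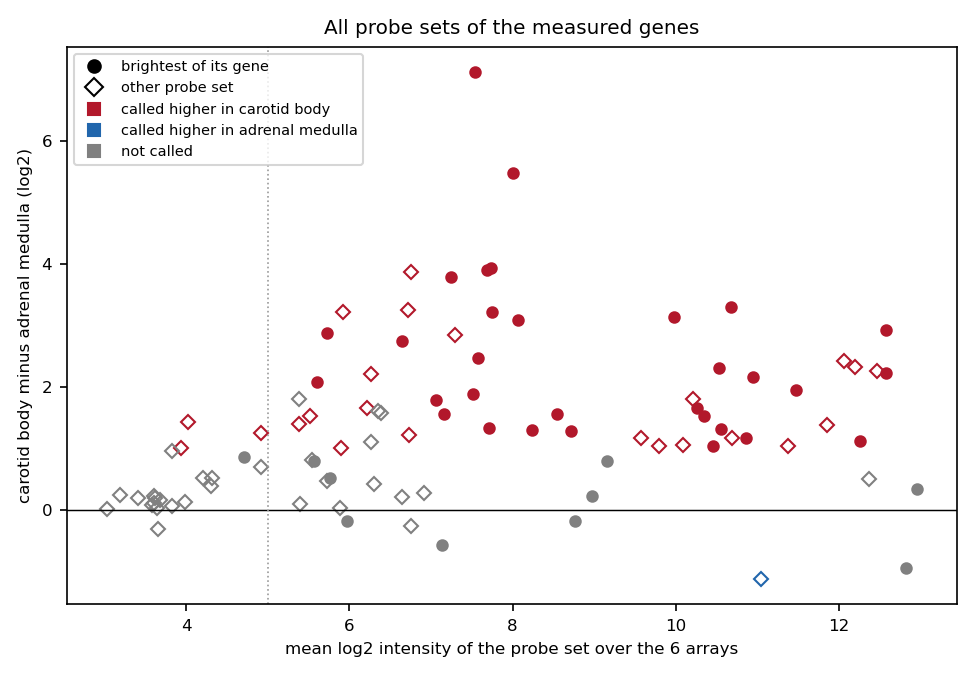
Every probe set of the 41 genes by its mean log2 intensity over the 6 arrays (x axis) and its difference between tissues (log2, y axis); filled circles are the brightest of a gene, open diamonds the others, and colours give the call. Left of the dotted line at 5, most probe sets lie near 0.

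Genes that work with these proteins, taken from lists fixed by name with earlier results of these data known, did not all share the direction. Of all genes, 5.91% were called higher in carotid body and 6.08% lower. Of 16 measured other elastic fibre and microfibril genes, 9 were higher in carotid body and 1 lower, with a median difference of 1.23. Mmrn1, a multimerin of endothelium and platelets, differed by 4.24, Fbln7, a further fibulin, by 3.59 and Adamtsl3 by 3.09 (adjusted p = 4.89e-05, 7.7e-06 and 1.41e-05). The other Mmrn1 probe set differed by 0.17, and the adrenal medulla means of Mmrn1 and Adamtsl3 were low, at 3.62 and 4.52. Of 28 matrix proteases and inhibitors, 11 were higher in carotid body and 2 lower (median 0.66). The gelatinase Mmp2 differed by 2.86 and Mmp23 by 2.76, while the collagenase Mmp13 differed by -2.81 (adjusted p = 3.92e-05, 5.58e-05 and 0.000991). Basement membrane genes had 8 of 27 higher in carotid body and 0 lower (median 0.65), led by Ntn4 at 3.80, Col4a5 at 2.55 and Lama4 at 2.10. The other probe sets of Ntn4, Col4a5 and Lama4 differed by 0.75, 0.57 and 0.06. Matrix receptors had 6 of 27 higher and 0 lower (median 0.50), with the integrin genes Itgb4 and Itgb8 at 3.23 and 2.65 and the collagen receptor Ddr2 at 2.31.

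Lists on collagen processing, sugar chains and other proteoglycans had medians near 0. For collagen processing and sugar chains the counts of calls, with the 2-fold limit, were also near the shares of all genes, 5.91% higher in carotid body and 6.08% lower. Of 20 other collagen processing and crosslinking genes, 2 were higher in carotid body and 1 lower, with a median difference of 0.00. Serpinh1, the collagen chaperone, differed by 1.43 (adjusted p = 0.000781) and the lysyl oxidase gene Loxl3 by 1.22 (adjusted p = 0.00521), while Plod2, a lysyl hydroxylase, differed by -2.24 (adjusted p = 0.00508). Glycosaminoglycan synthesis genes had 2 of 26 higher in carotid body and 1 lower (median 0.05). With an adjusted p under 0.05 and no minimum fold, 8 of them were higher and 3 lower, against 10.9% and 16.5% of all genes. Dsel, an epimerase that turns chondroitin into dermatan sulfate, the chain that decorin carries, differed by 1.59 (adjusted p = 0.000171), and the sulfotransferase Chst11 by -1.26 (adjusted p = 0.00375). Csgalnact1, which starts chondroitin chains, differed by 1.24 (adjusted p = 0.0169). The other probe sets of Chst11 and Csgalnact1 differed by -0.69 and -0.11. Among 29 other proteoglycans 5 were higher in carotid body and 3 lower (median 0.04). Besides Ecm2 these were led by the cell-surface proteoglycan Gpc6 at 2.68 and, in the other direction, Spock3 at -1.96 (adjusted p = 4.14e-05 and 0.00232). The other Spock3 probe set differed by -0.04.

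**Figure D5:**
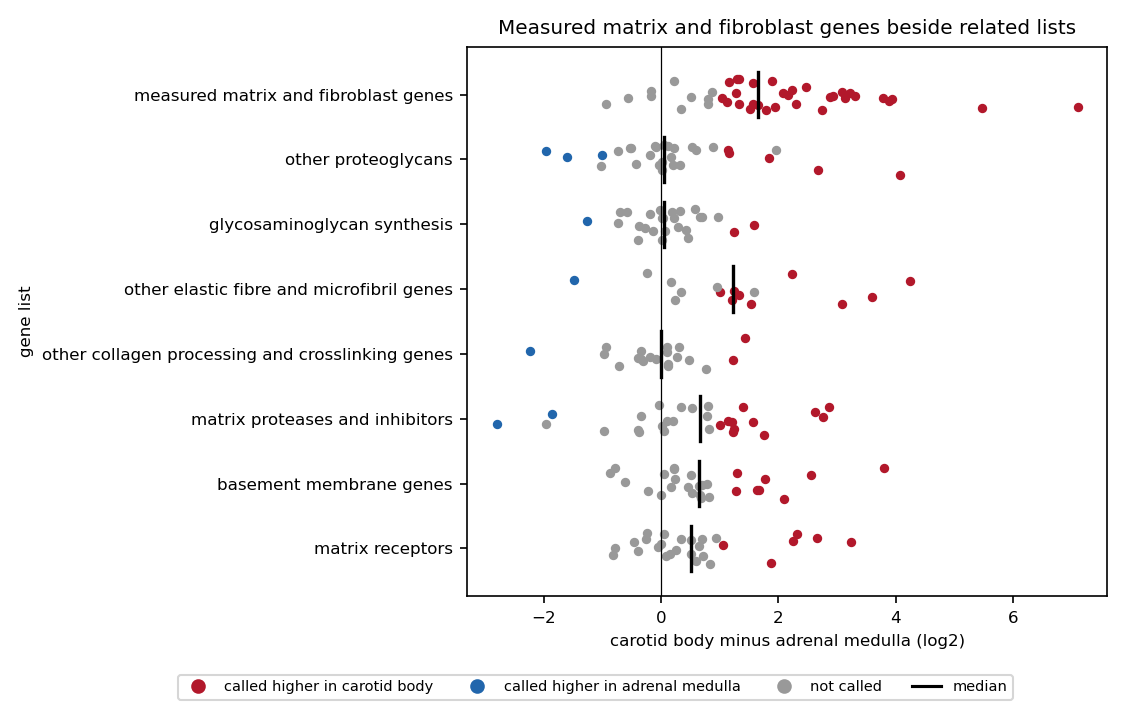
Differences between carotid body and adrenal medulla (log2, x axis) of the measured matrix and fibroblast genes and of 7 related lists (y axis); each point is a gene, coloured by its call, and black bars are medians. The medians run from 0.00 for other collagen processing and crosslinking genes to 1.65 for the matrix and fibroblast genes.

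Markers of fibroblasts, of smooth muscle and pericytes and of glia were mostly higher in carotid body, and those of endothelium and macrophages less often. Of all genes, 5.91% were called higher in carotid body and 6.08% lower. Of 16 further fibroblast lineage genes, listed like the other markers with earlier results of these data known, 14 were higher in carotid body and 0 lower. Their mean level was 9.59 to 9.80 on the carotid body arrays and 7.69 to 7.78 on those of adrenal medulla. Clec3b differed by 3.82 and Fap by 3.78. Tcf21, picked after its values were seen, went the other way by -2.29 and was not called (adjusted p = 0.102). It was 5.32, 3.25 and 7.33 in carotid body against 7.97, 7.5 and 7.32 in adrenal medulla. Of 14 markers of smooth muscle and pericytes 12 were higher, with mean levels of 9.41 to 9.53 and 7.33 to 7.56. Schwann, satellite and type II glia markers had 7 of 9 higher, at 9.22 to 9.41 against 7.45 to 7.72, and endothelial markers 4 of 12, at 9.02 to 9.25 against 8.04 to 8.23. Macrophage markers had 3 of 10 higher, at 8.89 to 9.06 against 8.16 to 8.46. Adrenal cortex markers had 10 of 11 higher in adrenal medulla, at 11.71 to 12.22 there and at 10.16, 5.61 and 5.35 in carotid body of cohorts 1, 2 and 3. Chromaffin and glomus cell markers had 8 of 13 higher in adrenal medulla and 1, Olfr78, in carotid body. Their mean levels were 10.38 to 10.53 in carotid body against 11.22 to 11.83 in adrenal medulla. The part of these differences in the matrix results was not tested.

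Markers of cartilage cells, mesothelium, adipocytes and skeletal muscle gave few calls. In each of these lists 0 markers were called higher in carotid body and 1 lower, of 10, 6, 7 and 10 measured, beside 5.91% and 6.08% of all genes. Those called lower were Acan at -1.61, Lrrn4 at -1.72, Lipe at -1.18 and Myl1 at -1.83 (adjusted p = 0.0224, 0.00012, 0.00397 and 0.000395). The other Lipe probe set differed by -0.09. Lists this short can show little, and the cartilage, mesothelium and muscle lists had mean levels under 5. Mean levels of the cartilage list were 4.59 to 4.66 in carotid body against 4.43 to 4.68 in adrenal medulla. The cartilage collagen gene Col2a1 was 4.65 to 4.96 and 4.29 to 4.37, and its difference of 0.51 was not called. Mesothelial markers were at 4.08 to 4.33 and 4.20 to 4.59, and skeletal muscle markers at 4.65 to 4.82 and 4.82 to 4.95. Adipocyte markers of cohorts 1, 2 and 3 were at 8.05, 7.34 and 6.95 in carotid body against 8.08, 7.42 and 6.79 in adrenal medulla.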

How the data were processed

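The deposited table gives a log2 intensity per probe set and array, a scale read from its values. Per the submitters' processing notes the tool was Affymetrix Expression Console; how it summarised and normalized the arrays is not given in the sources used here. Detection calls were not used, and levels are compared between tissues within a probe set, apart from ratios of paired genes and list means, which are also compared between tissues. The number of arrays limits the precision.

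Of 45101 probe sets, 64 controls were left out and 45037 entered a fit of 2 groups without a block, made in R 4.3.3 by limma 3.58.1 with lmFit and eBayes, and two-sided p-values were adjusted by Benjamini-Hochberg over all of them. The script was tested on simulated data. Symbols came from the platform annotation of the array: 34945 probe sets had 1 symbol, 932 several and 9160 none; 34741 gene IDs matched RefSeq (GRCm38.p6), and 0 symbols changed. Promoter windows, also from RefSeq, were found for 29 of the 41 genes. No filter on low values was set; 40 of the 41 genes lie at or above the median level of all probe sets.

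The members and lists were chosen with earlier results of these data known. All members may be named; in each related list up to 3 genes are named, by size of difference at an adjusted p under 0.05, in marker lists up to 2, and other genes are said to be chosen after their values were seen. Cohorts pair the samples, per the series' design text: deviations from the tissue means correlated at 0.22, 0.0836 and 0.163 within cohorts 1, 2 and 3, and at -0.214 to 0.101 between them. Xist went by tissue in every cohort, and whether paired pools came from the same mice was not tested. P-values reflect pools of animals. Alternatives were the cohort as a block, quantile normalization, median centring, leaving out dim probe sets, robust variances with an intensity trend, the mean of all probe sets, no minimum fold, and leaving out each array.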

Additional observations from a re-analysis of the deposited data

How the results depend on the processing

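With the cohort as a replicate block 31 of the 41 genes were called higher in carotid body and 0 lower, and the block changed no call among the 41, though the adjusted p of Tnc and Cilp passed 0.05 with it, at 0.031 and 0.0224, both under 2-fold. Of the 31 called genes, 25 were called under every alternative that was run, and the exceptions were Fmod, Vcan, Eln, Fbln2, Lox and Nid1. Leaving out single arrays gave 30 to 32 genes higher in carotid body, 0 to 1 higher in adrenal medulla (Pcolce) and a median difference of 1.6 to 1.80. Over all probe sets it gave 2407 to 3025 and 1587 to 2499 calls. Centring arrays on their medians shifted the median of all probe sets by -0.11; 1 gene was then higher in adrenal medulla, the members' median difference was 1.53, and the share of calls that were higher in carotid body was 46.0%, against 56.5% before centring. When a gene's probe sets were averaged, 1 gene was higher in adrenal medulla and the median difference was 1.24. Without a minimum fold, 1 gene was higher in adrenal medulla, and 5168 and 5576 probe sets were called in place of 2680 and 2064. Directions turned for genes that were not called: Hapln1, at -0.36 to 0.07 with single arrays left out, was 0.07 without the carotid body array of cohort 1, Mfap2, at -0.39 to 0.06, was 0.06 without the adrenal medulla array of cohort 2 and 0.02 with the mean of its probe sets, and Emilin1 was -0.03 with that mean. The cause was not tested. Low signal limits the size of the difference for Pcolce2, Comp, Thbs4 and Thbs1, the 4 genes with an adrenal medulla mean under 5.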

Other observations

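Genes outside the list were also high in the adrenal medulla pool of cohort 1; those named here were picked after their values were seen, from the genes with large gaps to both other adrenal medulla pools. Fmod had the second largest such gap of all 18193 genes, at 3.19, after Rspo3, a secreted Wnt activator, at 3.63. Rspo3 was 9.34, 5.26 and 5.70 in adrenal medulla of cohorts 1, 2 and 3, and 7.60 to 7.97 in carotid body. The macrophage elastase gene Mmp12 was 8.35, 5.04 and 5.36, and the secreted ligand Shh 11.12, 8.45 and 8.29. Igfbp6, a binding protein of insulin-like growth factors, was 8.04, 5.14 and 5.28, against 10.82 to 11.09 in carotid body. Star was 13.92 in this pool, 13.95 and 13.52 in the others, and the mean of the adrenal cortex markers was 12.19 against 12.22 and 11.71. Not all cortex markers were level: Cyp11b2 was 9.34 against 8.56 and 7.99. The angiotensin receptor gene Agtr1b was 8.21 against 5.34 and 4.69. The part of cortex in these gaps was not tested.

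Of 173 measured genes of the related matrix lists, 13 lay at least 0.5 above both other adrenal medulla pools in cohort 1, and 8 at least as far below both. Over all genes the shares were 2.13% above and 3.74% below, so the count below is near its share. Picked from these after their values were seen, the cell-surface proteoglycan Gpc3 was 8.46 in adrenal medulla of cohort 1 and 5.62 and 6.19 in cohorts 2 and 3, the brain proteoglycan Bcan 10.66 against 8.44 and 8.43, the aggrecan gene Acan 7.38 against 5.79 and 5.98, and the netrin gene Ntn4 8.25 against 6.63 and 6.47. On the low side, Csgalnact1 was 5.86 against 6.92 and 6.68, and Ltbp1, which binds latent TGF-beta, 6.71 against 7.29 and 7.58. The fetal fibrillin gene Fbn2, also picked after its values were seen, was 7.27 in carotid body of cohort 3 and 5.11 and 4.62 in cohorts 1 and 2.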
